A study of Homo sapiens with 18 samples.

Results

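The comparison described here is decitabine (DAC) against the solvent dimethyl sulfoxide (DMSO) in HL-60 cells, taken across gene families and classes of RNA gene. It rests on 6 of the 18 samples of the series, the 3 labelled HL60_DAC and the 3 labelled HL60_DMSO, and on all 17110 genes listed for them. HL-60 is an established human promyelocytic line of acute myeloid leukaemia (AML). The cells were grown in RPMI1640 medium with fetal bovine serum, plated in 6-well plates and treated for 48 h (day 2) with DMSO or DAC, at a stated 30 nM for this line. The 3 HL-60 samples treated with NTX-301, another nucleoside analogue, entered the same model and are used here only where they are set beside DAC. The wording of the dose leaves unclear whether 30 nM applies to both drugs or to DAC alone. Total RNA was sequenced with a stranded library kit. The labels describe triplicates but do not say that they were separate cultures, so p-values measure only the spread between these samples. The files hold 1 normalized log2 value per gene and sample. How these were scaled is not given in the sources used here, and fold changes are on the deposited scale. Low genes did not have the larger spread: the median SD of the DMSO replicates was 0.012 for genes with a mean under 5 and 0.043 for those of 9 to 11. Read depth is unknown.

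Decitabine is a deoxycytidine analogue. Cells phosphorylate it and build it into DNA, where it traps the maintenance methyltransferase DNMT1, so that CpG methylation is lost as the cells divide. Genes known to be held silent by promoter methylation include germline genes of the cancer-testis group. In myeloid cells, the peroxidase and cationic protein genes of granules are switched on in order during maturation, the azurophil granule proteins at the promyelocyte stage and the eosinophil proteins in a separate branch.

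The cells carried the markers of their label. Of 8 promyelocytic markers all 8 were listed, with summed linear values of 555000 to 588000 in DMSO and 557000 to 559000 with DAC. Most of that sum is MPO, so it says little of the other markers. Of 8 neutrophil secondary granule markers none was listed, and of 9 T and B lymphoid markers 1 was. The spread between replicates was small: the median gene had an SD of 0.032 in DMSO and 0.028 with DAC on the log2 scale. The first 2 principal components of the 9 HL-60 samples held 53.1% and 25.5% of the variance, and the 3 groups lay apart on them.

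DAC changed the expression of 4121 of 17046 genes tested, or 24.2%, at an adjusted p-value under 0.05 (limma). Of these, 1975 were higher with DAC (11.6% of genes tested) and 2146 lower (12.6%). The groups did not overlap for 38.5% of genes, with DAC above DMSO in 19.3% and below it in 19.2%. Although the counts in both directions were similar, the sizes were not. Among called genes, 92 rose by at least 0.5 on the log2 scale (0.54% of genes) and 4 fell by that much (0.0235%). At a size of 0.25 the numbers were 395 (2.32%) and 131 (0.769%). The balance also moved with the level of the gene. Among genes with a mean log2 value of 5 to 7, 9.37% were called higher and 2.42% lower. Among those of 11 to 13, 13.7% were called higher and 22.7% lower. Of the 92 genes that rose by at least 0.5, 67 had a mean between 7 and 11. The counts of lists, families and classes below are set beside the shares of all tested genes called higher and lower at the same levels, weighted by how many members of the group fall in each of 6 level ranges.

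**Figure D1:**
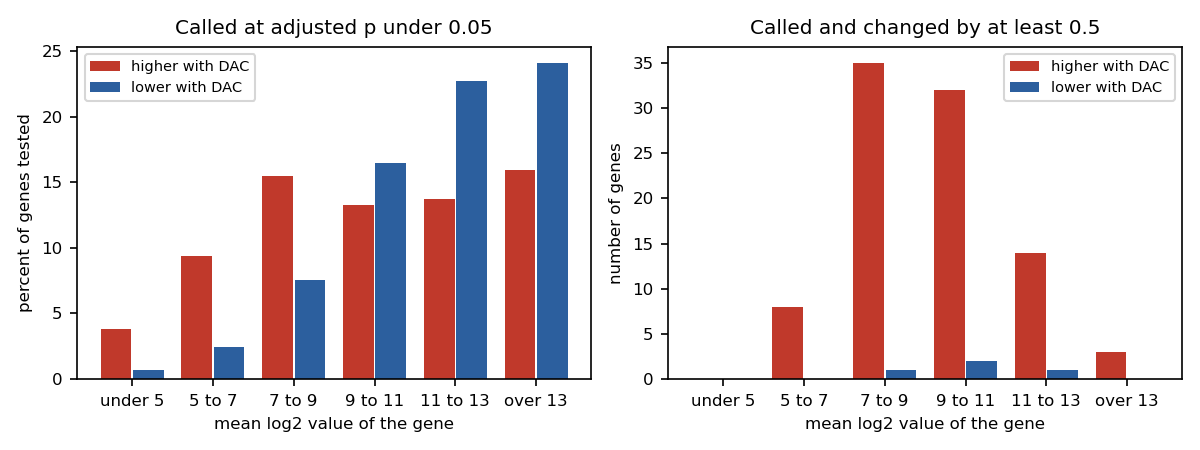
Share of the tested genes called higher (red) or lower (blue) with DAC in HL-60, by the gene's mean log2 value over 9 samples (left), and number of called genes that changed by at least 0.5 on the log2 scale (right). Called rises outnumber falls below a mean of 9 and falls outnumber rises above it, while 92 of the 96 changes of at least 0.5 are rises.

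EPX, which encodes eosinophil peroxidase, rose more than any other gene named by the rule used here. Its log2 value was 8.49, 8.52 and 8.55 in the 3 DMSO samples and 11.25, 11.20 and 11.22 in the 3 DAC samples. The groups lay far apart, a difference of 2.70 (SE 0.034, adjusted p 2.13e-15) or 6.52-fold on the deposited scale. HK3, a hexokinase found mainly in myeloid cells, stood at 9.85, 9.93 and 9.90 in DMSO and at 11.68, 11.64 and 11.60 with DAC (difference 1.75, SE 0.031). GCNA, a nuclear protein of germ cells, went from 7.74, 7.71 and 7.66 to 9.28, 9.32 and 9.33 (difference 1.61, SE 0.045). In both genes every DAC sample lay above every DMSO sample.

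A pair of lymphoid zinc finger factors of the Ikaros family came next. IKZF2 (Helios) was at 11.20, 11.17 and 11.19 in DMSO and at 12.63, 12.67 and 12.64 with DAC, a difference of 1.46 (SE 0.024, adjusted p 4.49e-14). IKZF3 (Aiolos) was at 7.89, 7.83 and 7.88 in DMSO and at 9.22, 9.28 and 9.23 with DAC, a difference of 1.38 (SE 0.039). Their relative IKZF1 (Ikaros), already high in these cells, rose by 0.18, from a mean of 14.27 to 14.45. The groups did not overlap for any of the 3 genes.

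The other genes among the 15 largest rises came from several functions. CLC, the Charcot-Leyden crystal protein of eosinophils and basophils, rose by 1.31, and the potassium channel gene KCNH2 by 1.28. RHEX, an adaptor of erythropoietin receptor signalling, rose by 1.26, and the complement receptor CR1 by 1.19. THSD7A (1.17), ZNF648 (1.14), CPXM1 (1.06), the giant muscle protein nebulin (NEB, 0.99), TTN-AS1 (0.97) and PPP1R27 (0.96) completed the set. TTN-AS1 is transcribed antisense to the gene of titin (TTN), which itself rose by 0.75, from a mean of 10.26 ± 0.052 to 11.01 ± 0.049 (SD, n = 3). Whether strand was used in counting is not given in the sources used here, so the reads of TTN and TTN-AS1 cannot be told apart.

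**Figure D2:**
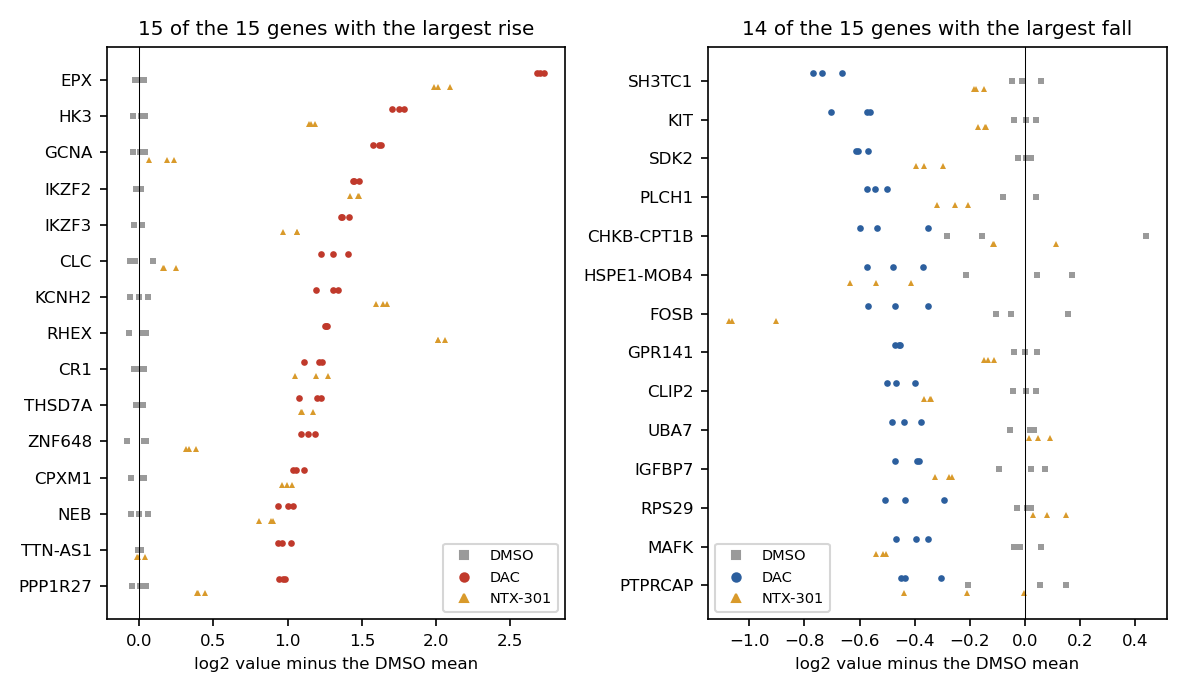
Log2 value of each HL-60 sample minus the mean of the 3 DMSO samples, for the 15 genes with the largest called rises (left) and 14 of the 15 with the largest called falls (right) with DAC. Squares are DMSO, circles DAC and triangles NTX-301, 3 samples each. The DAC samples of the risers lie 0.9 or more above the DMSO mean, and the DAC samples of the fallers reach no further than 0.8 below it.

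The promoters of the leading genes are printed to show how sparse or dense their CpG sites are, since CpG is the sequence at which DNA is methylated. Each line gives the 250 bases before a transcription start from RefSeq (GRCh38.p14), read 5′ to 3′ on the gene's own strand, with every CG in capitals. HK3 lies at chr5:176899347-176899596 (minus strand). IKZF2 has 2 listed starts, of which the first is shown, at chr2:213152457-213152706 (minus strand). CLC lies at chr19:39738030-39738279 (minus strand), GCNA at chrX:71578187-71578436 (plus strand) and KITLG, whose rise is given below, at chr12:88580472-88580721 (minus strand).
HK3: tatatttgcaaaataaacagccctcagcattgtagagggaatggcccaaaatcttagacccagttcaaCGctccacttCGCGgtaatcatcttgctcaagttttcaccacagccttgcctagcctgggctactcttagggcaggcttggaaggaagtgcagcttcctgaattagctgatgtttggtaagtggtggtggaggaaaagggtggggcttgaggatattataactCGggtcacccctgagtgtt
IKZF2: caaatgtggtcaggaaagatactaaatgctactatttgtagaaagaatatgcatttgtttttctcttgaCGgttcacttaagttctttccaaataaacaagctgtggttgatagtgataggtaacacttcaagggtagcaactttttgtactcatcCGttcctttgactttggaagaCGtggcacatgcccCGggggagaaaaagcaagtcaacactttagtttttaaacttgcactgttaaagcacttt
CLC: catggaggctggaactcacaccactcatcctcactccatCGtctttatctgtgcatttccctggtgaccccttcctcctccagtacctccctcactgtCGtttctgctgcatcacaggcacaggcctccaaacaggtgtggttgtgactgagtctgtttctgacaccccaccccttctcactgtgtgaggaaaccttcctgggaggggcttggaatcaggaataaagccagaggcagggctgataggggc
GCNA: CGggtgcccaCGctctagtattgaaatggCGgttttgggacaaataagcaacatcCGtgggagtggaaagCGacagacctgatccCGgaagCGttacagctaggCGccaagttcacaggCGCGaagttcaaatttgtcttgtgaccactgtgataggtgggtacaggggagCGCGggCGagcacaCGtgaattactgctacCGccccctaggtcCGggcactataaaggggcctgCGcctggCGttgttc
KITLG: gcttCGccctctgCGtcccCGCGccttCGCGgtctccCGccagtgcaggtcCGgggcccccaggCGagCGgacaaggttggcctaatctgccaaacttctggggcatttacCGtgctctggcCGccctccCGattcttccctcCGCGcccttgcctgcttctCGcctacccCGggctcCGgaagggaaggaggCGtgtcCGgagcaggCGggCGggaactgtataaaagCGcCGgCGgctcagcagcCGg

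The HK3 and IKZF2 windows hold 4 CpG sites each and the CLC window 2, whereas GCNA holds 18 and KITLG 26. Expressed as the observed to expected CpG ratio over 300 bases (250 before to 50 after the start), HK3 had 0.224, IKZF2 at this start 0.384, CLC 0.098, GCNA 0.873 and KITLG 0.937. The leading risers therefore include promoters poor in CpG as well as CpG islands. EPX, PRG2 and IKZF3 had no entry in the table used.

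Across protein-coding genes with a promoter sequence (9745 of 11799, or 82.6%), the median CpG ratio was 0.87, and it was 0.604 among the 50 with the largest rises. Of these 50, 25 had a ratio under 0.6. Of all 1220 genes under 0.6, 17.0% were called higher and 13.3% lower with DAC, and 29 rose by at least 0.5. Of the 8525 genes at 0.6 or more, 13.5% were called higher and 17.7% lower, and 33 rose by at least 0.5. CpG-poor genes had lower values on the whole, so the classes were also read within level ranges. Among genes with a mean of 7 to 9, 22.6% of the CpG-poor and 18.3% of the CpG-rich class were called higher, and 9.73% and 7.97% lower. Among those of 9 to 11 the shares were 19.8% and 12.4% higher, and 18.6% and 17.4% lower. Among those of 11 to 13 the shares were 17.3% and 12.7% higher, and 31.0% and 22.3% lower. There the CpG-poor class was called lower more often, unlike over all levels. Among those of 5 to 7 they were 14% and 14.1% higher and 2.58% and 3.0% lower. With the lowest ratio over all starts of a gene in place of the highest, the CpG-poor class grew from 1220 to 2508 genes. Of the 2508, 419 were called higher (16.7%) and 399 lower (15.9%), in place of 207 (17.0%) and 162 (13.3%). These are counts over genes, which are not independent replicates, and no methylation was measured in these files.

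**Figure D3:**
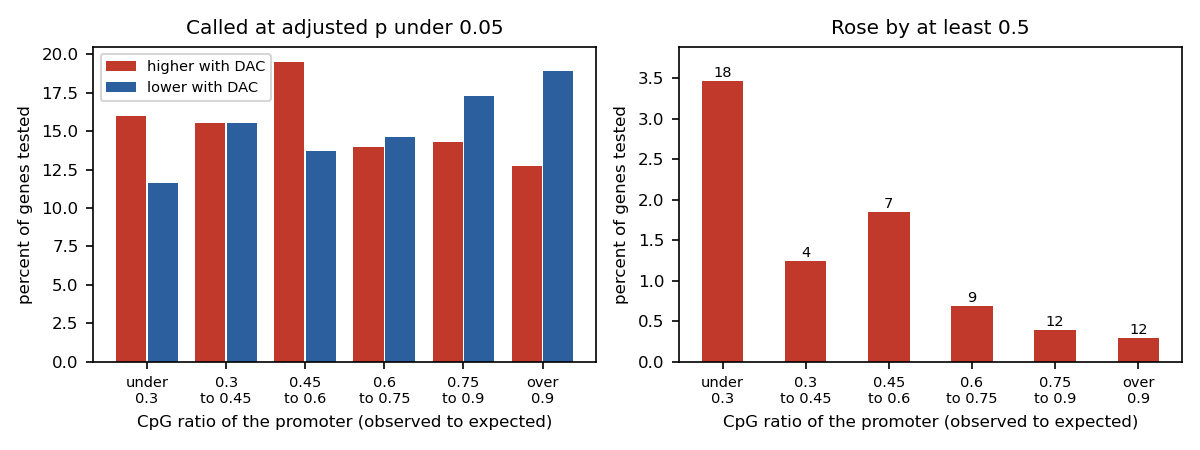
Protein-coding genes by the CpG ratio of their promoter: share called higher or lower with DAC (left) and share that rose by at least 0.5 on the log2 scale, with the number of genes above each bar (right). Falls outnumber rises at ratios of 0.6 and over, and rises outnumber falls under 0.3, where 18 genes rose by at least 0.5.

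Eosinophil and basophil genes were higher with DAC as a group. Of 22 such genes 9 were tested, 7 were called higher (14.4% of all genes at these levels) and none lower (12.6%), and the median difference was 0.44. Besides EPX and CLC, the risers were PRG2, RNASE2, RNASE3, CPA3 and MS4A3. PRG2, the major basic protein of eosinophil granules, was at 18.21, 18.26 and 18.23 in DMSO and 18.68, 18.64 and 18.72 with DAC (difference 0.44, SE 0.021, adjusted p 3.63e-09). RNASE2 (eosinophil-derived neurotoxin) rose by 0.65 from a mean of 9.59. RNASE3, the eosinophil cationic protein, rose by 0.24 from a mean of 6.48. CPA3, the mast cell and basophil carboxypeptidase, rose by 0.64. For MS4A2 and FCER1G, 2 chains of the high-affinity IgE receptor, the differences of 0.09 and 0.10 did not pass the test. Summed over the 7 of 14 eosinophil and basophil markers that were listed, the linear value was 305000 to 316000 in DMSO and 413000 to 435000 with DAC. PRG2, by far the highest of the 7, makes up nearly all of this sum, which says little of the other markers. The markers CCR3, IL5RA, SIGLEC8, PRG3, HDC, FCER1A and ALOX15 were not listed. In bulk RNA, a change in the number of cells of a type and a change in RNA per cell cannot be told apart.

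Azurophil granule genes, which mark the promyelocyte, moved less and not all in 1 direction. Of 12 tested, 6 were called higher (beside 14.1% of all genes at the same levels) and 1 lower (beside 20.0%), with a median of 0.08. PRSS57, a neutrophil serine protease, rose by 0.41 (SE 0.042), lysozyme (LYZ) by 0.25, the proteoglycan serglycin (SRGN) by 0.22 and azurocidin (AZU1) by 0.20. CTSG (0.08) and DEFA4 (0.10) passed the test narrowly. CTSG lost its call without DMSO replicate 1 (0.07), DMSO replicate 2 (0.08), DAC replicate 1 (0.07) or DAC replicate 3 (0.07). DEFA4 lost it without DMSO replicate 2 (0.09) or 3 (0.09) or DAC replicate 2 (0.06) or 3 (0.11). MPO, myeloperoxidase, was at 18.67, 18.70 and 18.75 in DMSO and 18.64, 18.63 and 18.65 with DAC. That difference of −0.07 was called lower, but not without DMSO replicate 3 (−0.05), DAC replicate 1 (−0.07) or DAC replicate 2 (−0.06). ELANE (0.04) and PRTN3 (0.06), the proteases elastase and proteinase 3, did not pass the test. They did so without DMSO replicate 3, at 0.09 and 0.10.

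Genes of later stages were few. Of the secondary granule list 8 genes were tested, and only CHI3L1 (0.41) and CEACAM6 (0.30) were called higher, with none lower (11% and 9.67% at the same levels). Of 12 monocyte and macrophage genes, 4 were called higher and none lower (10.5% and 7.02% at the same levels). These were the endotoxin receptor TLR4 (0.25), its relative TLR2 (0.18), CD68 (0.20) and the Fc receptor FCGR1A (0.17). The summed linear value of the 4 listed monocyte markers was 5640 to 5840 in DMSO and 6670 to 6990 with DAC, while CD14 and CD163 were not listed. Most of that sum is LYZ, which is also on the azurophil list. ITGA2B, the platelet integrin alpha IIb, rose by 0.59. Annexin A1 (ANXA1), an abundant protein of neutrophils, rose by 0.66, from 12.03, 12.08 and 12.01 to 12.74, 12.66 and 12.71. S100A6 rose by 0.54 and S100A4, of the same calcium-binding family, fell by 0.31.

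Of 46 transcription factors of myeloid development, 17 were called higher and 12 lower, with a median near 0. At the same levels 14.2% and 18.7% of all genes were called in these directions, against 37.0% and 26.1% of the list. GATA2, a factor of stem cells, mast cells and eosinophil precursors, was at 10.93, 10.97 and 11.02 in DMSO and 11.69, 11.79 and 11.77 with DAC, a difference of 0.78 (SE 0.030). Its antisense neighbour GATA2-AS1 rose by 0.35, and the reads of the pair cannot be told apart. STAT5A, which carries signals of the interleukin-5 family of cytokines, rose by 0.43, RUNX2 by 0.37, NFE2 by 0.29, MYB by 0.27 and the granulocyte factor CEBPE by 0.19. On the other side TRIB1 fell by 0.21, CEBPA, a master factor of granulocyte differentiation, by 0.18 and LMO2 by 0.17. GFI1 was at a mean of 14.50 in both groups.

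Receptors and ligands for cytokines moved in both directions. KIT, the receptor of stem cell factor, was at 11.26, 11.22 and 11.30 in DMSO and 10.70, 10.56 and 10.69 with DAC, a difference of −0.61 (SE 0.036, adjusted p 3.4e-08). KITLG, which encodes its ligand, stood at 8.98, 8.91 and 8.94 in DMSO and 9.73, 9.77 and 9.81 with DAC, a difference of 0.82 (SE 0.043). Neither gene's groups overlapped, so receptor and ligand changed in opposite directions. Of 37 cytokine receptors 10 were called higher (27.0%, beside 12.6% at the same levels) and 7 lower (18.9%, beside 13.3%). IL1RL1, the interleukin-33 receptor of mast cells, basophils and eosinophils, rose by 0.59. CSF2RB, the shared chain of the receptors for interleukin-3, interleukin-5 and GM-CSF, rose by 0.41 and CXCR4 by 0.43. IL9R rose by 0.51, though reads may be shared with its pseudogene copies. IL6R fell by 0.30.

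Chemokine and NF-κB target genes were called higher more often than genes at their levels. Of 27, 11 were called higher (12.4% at the same levels) and 1 lower (11.9%), with a median of 0.08. PTGS2, the inducible cyclooxygenase, rose from 8.18, 8.05 and 8.09 to 8.95, 8.81 and 8.92, a difference of 0.78 (SE 0.049). The chemokine CCL4 rose by 0.73 and CCL3 by 0.71, both of which have near-identical copies that can share reads. CXCL8, the neutrophil attractant interleukin-8, rose by 0.39, from a mean of 14.30 to 14.69. The 1 member called lower was NFKBIA (−0.21), the inhibitor of NF-κB. The immediate-early list was mixed, with 8 of 32 called higher (beside 12.1% at the same levels) and 7 lower (beside 12.3%). The count higher was 5 without DAC replicate 2. FOSB fell by 0.46, FOS by 0.36 and NR4A2 by 0.28. FOSB was at 9.65, 9.39 and 9.44 in DMSO and 9.02, 9.14 and 8.92 with DAC.

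Germline genes that could be measured were higher with DAC or did not pass the test. Of 96 germline and cancer-testis genes on the list, 16 were tested, and the other 80 were not listed. Of the 16, 6 were called higher (10.8% at the same levels) and none lower (8.62%), with a median of 0.05. After GCNA, the largest rises were those of MAGEB2, an X-linked cancer-testis antigen (8.76, 8.72 and 8.74 in DMSO, 9.37, 9.43 and 9.40 with DAC, difference 0.66), and PIWIL4, which binds small RNAs that silence transposons (difference 0.51). TEX15, a partner in the same pathway, rose by 0.32. HORMAD1 and TDRKH were also called higher, at 0.07 and 0.05.

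Histone genes included a testis member. H1-6, the linker histone of spermatocytes, was at 6.38, 6.38 and 6.44 in DMSO and 7.29, 7.33 and 7.37 with DAC, a difference of 0.93 (SE 0.037). H1-3, a linker histone of dividing cells, rose by 0.85. Of 51 core histone genes of the replication clusters, 5 were called higher (9.8%, beside 14.5% at the same levels) and 9 lower (17.6%, beside 21.5%), with a median of −0.01. H3C12 rose by 0.64, from a mean of 5.80, and H4C4 by 0.46, from a mean of 12.04.

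Genes for constant regions of the T-cell receptor were also present in these myeloid cells. Of 4 tested, 3 were called higher and none lower, where 14% and 6.25% of all genes were called at the same levels. TRDC rose by 0.40, TRAC by 0.30 and TRGC2 by 0.27, while TRGC1 (−0.08) did not pass the test. These 4 genes were named after their values were seen. The mean log2 values of TRDC, TRAC and TRGC2 in DMSO were 6.94, 6.45 and 8.73. Of the T and B lymphoid markers CD3D, CD3E, CD3G, CD2, CD79B, MS4A1 and PAX5, none was listed.

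Protein-coding genes for the cytosolic ribosome fell together. Of 82 tested, 64 (78.0%) were called lower and none higher, against 23.7% called lower among genes at their levels. The difference was below 0 for 78 of the 82, the median was −0.11, and 40 of 50 genes of the large and 24 of 32 of the small subunit were called lower. Each fall was small. RPS29, a small subunit protein, had the largest, at 13.48, 13.53 and 13.52 in DMSO and 13.08, 13.01 and 13.22 with DAC (difference −0.41, SE 0.043). RPL22L1 fell by 0.29 and RPS14 by 0.21. Of 423 pseudogenes of these proteins, 12 were called higher (7.23% at the same levels) and 7 lower (3.63%), with a median of 0.00.

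The machinery that makes ribosomes moved the same way. Of 66 ribosome biogenesis genes, 34 were called lower and 3 higher (FBL, UTP4 and POLR1F), the median was −0.08, and 59 lay below 0. At the same levels 22.5% of genes were called lower. The nucleolar protein NPM1 fell by 0.17, from a mean of 17.14 to 16.97. WDR43 fell by 0.17 and nucleolin (NCL) by 0.09. FBL, the rRNA methyltransferase fibrillarin, rose by 0.10. Of 34 genes on a list of hosts, which carry small nucleolar RNAs (snoRNAs) in their introns, 18 were called lower (20.0% at the same levels). The 18 include RMRP (−0.11), the RNA of RNase MRP, which is not a snoRNA host. Only SNHG14 was called higher (14.5% at the same levels), and the median of the list was −0.10. SNHG15 fell by 0.28, SNHG7 by 0.23, ZFAS1 by 0.22 and SNHG1 by 0.16.

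Genes of the mitochondrial ribosome and of respiratory complex I were lower as well. Of 84 genes with an MRPL or MRPS symbol, 36 were called lower and 1, MRPL55, higher (median −0.08, 19.6% lower at the same levels). These 84 include pseudogenes and an antisense RNA, and 78 had a protein-coding transcript length. MRPL54 fell by 0.29, MRPL58 by 0.21 and MRPL9 by 0.20. Of 59 genes with an NDUF symbol, 23 were called lower and none higher (median −0.08, 16.7% lower at the same levels). These 59 include pseudogenes and antisense RNAs, and 48 had a protein-coding transcript length. NDUFA7 fell by 0.25, NDUFAB1 by 0.19 and NDUFA11 by 0.16. The complex I count dropped to 12 without DMSO replicate 2 and to 13 without DAC replicate 2. Spliceosome genes showed a smaller shift, with 24 of 63 called lower and 3 higher (HNRNPA2B1, SF3B2 and U2AF1), a median of −0.05 and 23.0% lower at the same levels. RBM39 fell by 0.17, SNRPD1 by 0.13 and SRSF7 by 0.12.

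Transcript length moved with the direction of the calls. Of 6 length ranges of protein-coding genes, the shortest transcripts (under 750 bases) were called higher in 12.1% and lower in 22.1% of genes, and the longest (over 4000 bases) higher in 18.6% and lower in 13.5%. The median transcript length was 685 bases for cytosolic ribosomal proteins, 763.5 for complex I and 1034 for mitochondrial ribosomal proteins. After trends with length and GC content were removed from each sample, 65 cytosolic ribosomal protein genes, 37 mitochondrial ones, 21 of complex I, 36 of ribosome biogenesis and 26 of the spliceosome were called lower. That fit covered the 11434 protein-coding genes that have a length, over which the deposited values gave 67, 44, 25, 36 and 28.

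**Figure D4:**
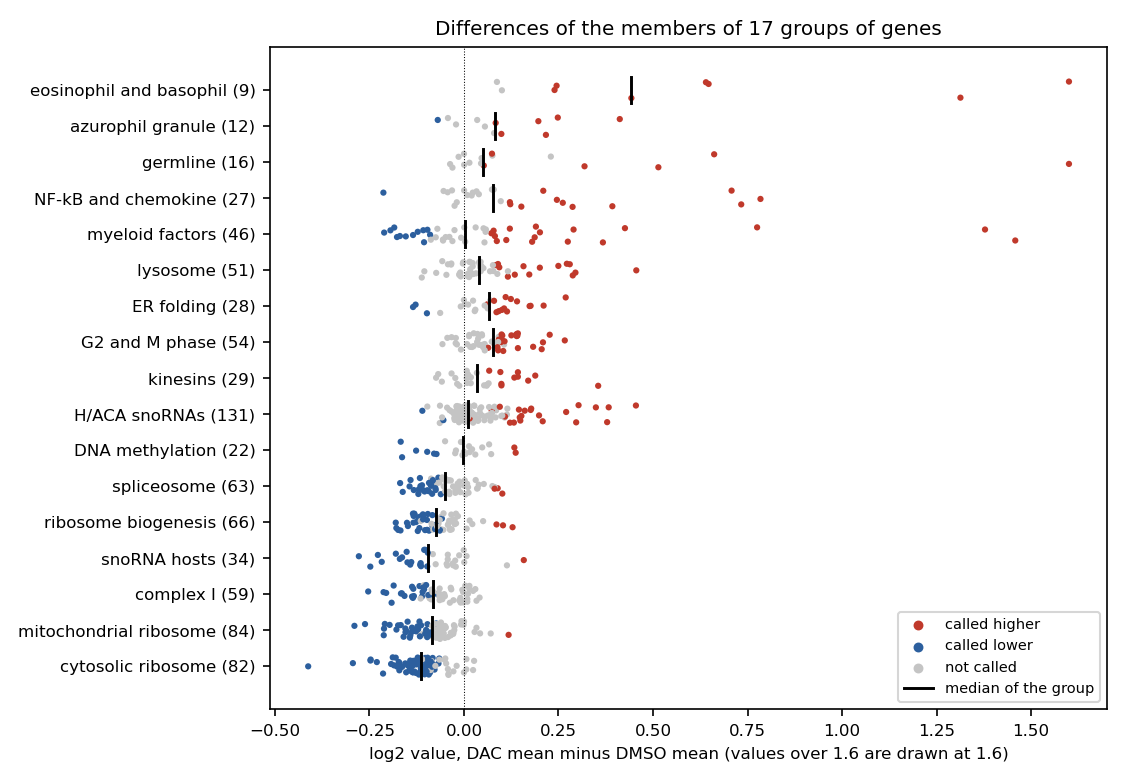
Difference between the DAC and DMSO means (log2) for each tested member of 17 gene groups, with the number of members in parentheses and the vertical bar at the group's median. Red points were called higher, blue points lower and grey points neither, and GCNA and EPX lie beyond the right edge at 1.61 and 2.70. Eosinophil and basophil genes lie to the right and ribosomal genes to the left.

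Genes of G2 phase and mitosis were higher. Of 54, 24 were called higher and none lower (14.3% and 22.3% at the same levels), with a median of 0.08 and 47 members above 0. SPC25, a kinetochore component, rose by 0.27. The CDK phosphatase CDC25B rose by 0.21 and CDCA5, which holds sister chromatids together, by 0.21. FOXM1, the transcription factor of this programme, rose by 0.14, from 11.51, 11.55 and 11.53 to 11.67, 11.71 and 11.63, and the topoisomerase TOP2A by 0.10. Genes with a KIF symbol encode kinesin motors, apart from an antisense RNA. Of 29 tested, 10 were called higher and none lower (12.9% and 16.5% at the same levels), with a median of 0.03. The largest was KIF21A (0.36), and the mitotic motors KIF2C and KIF11 rose by 0.14 each. Kinesin transcripts were long (median 4354 bases). In the fit over protein-coding genes with a length, 10 were called higher both from the deposited values and with the length and GC trends removed. Of 65 genes of G1 and S phase, 14 were called higher (21.5%, beside 14.3% at the same levels) and 3 lower (PCNA, CDK4 and TIPIN; 4.62%, beside 21.1%). With length and GC trends removed 22 of them were called higher. Cyclin D2 (CCND2) rose by 0.42 from a mean of 13.58, and every DAC sample lay above every DMSO sample.

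Genes of the secretory and degradative compartments were also higher more often than lower. Of 28 genes of protein folding in the endoplasmic reticulum, 14 were called higher (14.9% at the same levels) and 3 lower (XBP1, HERPUD1 and SDF2L1, beside 23.3%), with a median of 0.07. The chaperone calreticulin (CALR) rose by 0.14, the membrane-bound factor CREB3L2 by 0.21 and SEC24D, of the transport vesicle coat, by 0.18. XBP1, a central factor of the unfolded protein response, fell by 0.13. Of 51 lysosomal genes 14 were called higher (13.3% at the same levels) and none lower (15.9%). The nuclease DNASE2 rose by 0.46, the protease CTSD by 0.28 and the granule membrane protein CD63 by 0.29.

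Iron handling genes gave a mixed list, with 7 of 31 called higher (22.6%, beside 13.5% at the same levels) and 3 lower (UROD, UROS and HMOX2; 9.68%, beside 17.8%). Only 1 was called lower without DMSO replicate 2 or 3 or DAC replicate 2. The iron exporter ferroportin (SLC40A1) went from 7.10 ± 0.022 to 7.94 ± 0.052 (SD, n = 3), a difference of 0.84 (SE 0.042), with no overlap. Ferritin heavy chain (FTH1) rose by 0.34, the iron sensor ACO1 by 0.35, the transferrin receptor TFRC by 0.11 and BLVRA, which reduces biliverdin, by 0.34. Glycolysis genes split by member. HK3, HK1 (0.46), LDHA and ALDOC rose, 4 of 28 (14.3%), close to the 14.5% of all genes at the same levels. Another 11 were called lower (39.3%, beside 18.9% at the same levels). The fructose transporter SLC2A5 fell the most of these, by 0.38.

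Among the enzymes and readers of DNA methylation, the process the drug acts on, no difference in RNA was larger than 0.17. Of 22 tested, 2 were called higher (HELLS and ZBTB38; 9.09%, beside 14.3% at the same levels) and 6 lower (27.3%, beside 20.2%). Without DMSO replicate 1 the counts were 4 and 3. DNMT1 was at 14.27, 14.30 and 14.35 in DMSO and 14.35, 14.34 and 14.34 with DAC, so the groups overlapped (difference 0.03, adjusted p 0.36). It passed the test at 0.06 once length and GC trends were removed. UHRF1, which guides DNMT1 to newly made DNA, had a difference of −0.01 and DNMT3B one of −0.02, and neither passed the test. DNMT3A was called lower at −0.16, a call lost without DMSO replicate 1 (−0.15), DMSO replicate 3 (−0.14), DAC replicate 1 (−0.10) or DAC replicate 3 (−0.16). The remodeller HELLS rose by 0.13, the methylcytosine oxidase TET3 fell by 0.10, SETDB1 fell by 0.13 and MBD3 by 0.17. The difference was 0.05 for TET2 and 0.00 for TRIM28, and neither passed the test. Among 30 genes of nucleoside metabolism, 4 were called higher (13.3%) and 6 lower (20.0%), shares close to those of all genes at the same levels (14.3% and 20.8%). The count lower was 3 without DMSO replicate 2 or DAC replicate 2, and the count higher was 7 with length and GC trends removed. Ribonucleotide reductase RRM2 rose by 0.23, thymidylate synthase TYMS by 0.21, and UMPS, of uridine synthesis, fell by 0.16. DCK, the kinase that activates decitabine, had a difference of 0.00 (adjusted p 0.998).

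Of 55 interferon response genes 8 were called higher (14.5%), close to the 13.3% of all genes at the same levels, and 10 lower (18.2%, beside 12.7%), with a median of 0.01. LGALS3BP (0.59) and MX2 (0.42) were the largest rises. Of 33 targets of p53, 6 were called higher (18.2%, beside 13.1% at the same levels) and 7 lower (21.2%, beside 13.6%), and 1 of the 6 was KITLG. The count lower was 4 without DMSO replicate 2 or DAC replicate 2.

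Classes of noncoding gene differed in how often and in which direction they were called. Of 11799 protein-coding genes, 1657 were called higher (14%, beside 13.2% of all genes at the same levels) and 1965 lower (16.7%, beside 16.4%). Of 2101 long noncoding RNA genes, 132 were higher (6.28%, beside 8.86%) and 107 lower (5.09%, beside 4.42%). Of 1641 pseudogenes, 82 were higher (5.0%, beside 7.3%) and 20 lower (1.22%, beside 3.24%). Of 461 transcribed pseudogenes, 35 were higher (7.59%, beside 10.9%) and 41 lower (8.89%, beside 7.88%). Low genes are called less often whatever their class, so the classes were also read within ranges of level. Among genes with a mean log2 value of 7 to 9, 18.4% of protein-coding genes, 7.12% of long noncoding RNA genes and 10.8% of pseudogenes were called higher. In the same range 8.44%, 8.4% and 1.97% were called lower. The order of the shares called higher was reversed at higher levels. Among genes of 9 to 11 they were 13.2%, 16.4% and 14.1%, with 17.2%, 15.8% and 1.41% called lower. Among those of 11 to 13, with only 45 long noncoding RNA genes and 37 pseudogenes, they were 13.6%, 24.4% and 18.9%. The shares called lower there were 22.5%, 26.7% and 13.5%. Pseudogene counts hung on single samples: 43 were called higher without DMSO replicate 1 and 45 without DAC replicate 2, and the count lower was 13 without DMSO replicate 2 and 10 without DAC replicate 1 or 2. Of transcribed pseudogenes, 22 were called higher without DMSO replicate 2, and 26 and 23 lower without DMSO replicate 3 and DAC replicate 2.

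**Figure D5:**
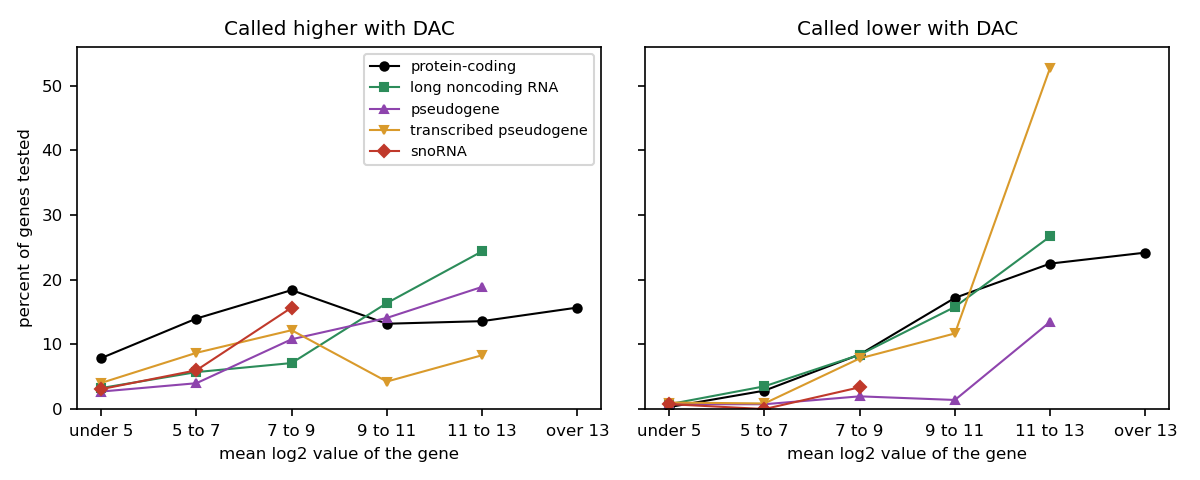
Share of tested genes called higher (left) or lower (right) with DAC by class of gene and mean log2 value, for points with at least 30 genes. Between 7 and 9 protein-coding genes were called higher most often, at 18.4%, and between 9 and 11 the share called lower was 17.2% for protein-coding genes and 1.41% for pseudogenes.

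Among long noncoding RNAs, LINC00958 rose by 0.68, from a mean of 6.75 to 7.44. LINC00926 rose by 0.31. KCNQ1OT1, the antisense RNA of an imprinted domain, rose by 0.25. Among pseudogenes, the largest rises were those of YWHAZP1 (0.80), RNF138P1 (0.77) and the receptor pseudogene ADGRE4P (0.74). YWHAZP1 and RNF138P1 are copies of expressed genes and may take or lose reads of these, so their values are uncertain. Of 430 microRNA genes, 5 were called higher (4.19% at the same levels) and 4 lower (0.88%). The count higher was 1 without DMSO replicate 1 or 2, 2 without DMSO replicate 3 or DAC replicate 2 and 3 without DAC replicate 1 or 3. The count lower was 1 without DMSO replicate 2 and 2 without DAC replicate 2 or 3. A total RNA library does not measure mature microRNAs, so these values describe hairpin or host transcripts. MIR181B1 fell by 0.08.

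Small nucleolar RNAs guide the modification and cutting of ribosomal RNA. Of 334 tested, 35 were called higher (10.5%), close to the 9.07% of all genes at the same levels, and 4 lower (1.2%, beside 3.92%). The count higher was 20 without DMSO replicate 1 or 3 and 18 without DAC replicate 2. Copies of the U3 RNA (SNORD3), needed for the first cuts of the ribosomal precursor, were all 5 called higher (15.4% at the same levels). SNORD3C was at 11.97, 12.21 and 11.84 in DMSO and 12.79, 12.93 and 12.52 with DAC, a difference of 0.74 (SE 0.111). Replicate 3 was the lowest in both groups for all 5 copies. SNORD3B-2 rose by 0.59 and SNORD3B-1 by 0.52, though SNORD3B-1 did not pass the test with robust variances. SNORD3A (0.45) lost its call without DMSO replicate 3 (0.27), DAC replicate 1 (0.39) or DAC replicate 2 (0.36). SNORD3D (0.70) lost it without DMSO replicate 1 (0.69) or 3 (0.59) or DAC replicate 1 (0.65) or 2 (0.60). The copies are near-identical, so they share reads and are not independent. The families differed in their counts. Of 202 C/D snoRNAs, which guide methylation, 13 were called higher (6.44%, beside 9.01% at the same levels) and 2 lower (0.99%, beside 3.81%). Of 131 H/ACA snoRNAs, which guide pseudouridylation, 22 were called higher (16.8%, beside 9.2%) and 2 lower (SNORA30 and SNORA67; 1.53%, beside 4.12%). The H/ACA count fell to 10, 14 and 11 without DMSO replicates 1, 2 and 3 and to 9 without DAC replicate 2. SNORA63 rose by 0.45, SNORA68 by 0.38 and SNORA73B by 0.30, the last not with robust variances. Reads of a snoRNA and of its host's intron cannot be told apart in these values.

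The largest falls were smaller and spread over unrelated functions. SH3TC1 was at 8.85, 8.81 and 8.92 in DMSO and 8.12, 8.20 and 8.09 with DAC, a difference of −0.72 (SE 0.041, adjusted p 2.06e-08). After KIT came SDK2, an adhesion molecule (−0.60), the phospholipase PLCH1 (−0.54), the receptor GPR141 (−0.46) and CLIP2, a microtubule-binding protein (−0.46). UBA7, the activating enzyme of the interferon-induced modifier ISG15, fell by 0.43, IGFBP7 by 0.42 and MAFK by 0.41. PTPRCAP (−0.40, not called with robust variances) was also in the set, as were 2 readthrough genes, CHKB-CPT1B (−0.50) and HSPE1-MOB4 (−0.47). Readthrough genes share reads with the genes they join and are uncertain. CHKB-CPT1B was −0.28 without DMSO replicate 3, and its call was lost without DAC replicate 1 (−0.45).

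Genes next to the leading risers were looked at as well. For the 5 genes with the largest rises, the 2 genes on each side were taken from the RefSeq order. Most of these neighbours were not listed, and only those named here had a value. MKS1 beside EPX had a difference of 0.01, UIMC1 beside HK3 0.01, OGT and CXCR3 beside GCNA 0.01 and 0.07, and MIEN1 near IKZF3 0.02, and none of these passed the test. The noncoding LOC102725082 near IKZF2 rose by 0.26 (adjusted p 0.000585). Of the 173 tested genes that lie next to a gene that rose by at least 0.5 and did not rise by that much themselves, 39 (22.5%) were called higher and 10 (5.78%) lower, beside 11.6% and 12.6% of all genes, which include those with larger rises. Of the 92 genes that rose by at least 0.5, 7 had an adjacent gene that did so too.

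Beside the other nucleoside analogue, the 30 genes with the largest changes were compared directly between NTX-301 and DAC. The means of the 2 drugs were tested against each other in the fit of all 9 samples. The DMSO mean did not enter this difference, but the DMSO samples entered the estimate of its spread. In this test 5185 of all genes differed (30.4%), with NTX-301 lower for 15.0% and higher for 15.4%. The 30 genes were chosen by the same DAC samples that enter this comparison, and that choice favours NTX-301 values below DAC for the rises and above it for the falls, so the directions are given as a description. Of the 15 genes with the largest rises, 11 differed, and for 9 of them the NTX-301 mean lay below the DAC mean. The widest gaps were those of GCNA, at 7.77, 7.93 and 7.89 with NTX-301 against 9.28, 9.32 and 9.33 with DAC (NTX-301 minus DAC −1.45), CLC (−1.12) and TTN-AS1 (−0.97). For EPX the difference was −0.67. KCNH2 (0.36) and RHEX (0.77) were higher with NTX-301. NEB (−0.12) no longer passed the test without DAC replicate 1 (−0.12) or 3 (−0.10) or NTX-301 replicate 2 (−0.09) or 3 (−0.13). For IKZF2, CR1, THSD7A and CPXM1 the difference did not pass the test, and that of IKZF2 was 0.00.

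Of the 15 genes with the largest falls, 13 differed, and 11 of them were higher with NTX-301 than with DAC. SH3TC1 was 0.55 higher, RPS29 0.50 and KIT 0.46. FOSB went the other way, 0.55 below DAC, as did MAFK (−0.11), whose call was lost without DAC replicate 1 (−0.11), DAC replicate 2 (−0.09) or NTX-301 replicate 1 (−0.10). The calls of CLIP2 (0.11) and IGFBP7 (0.13) were lost in 5 and in 4 of 6 fits with a sample removed, with values of 0.08 to 0.13 and 0.10 to 0.14 over the 6 fits: CLIP2 kept its call without DAC replicate 2, and IGFBP7 without DAC replicate 3 or NTX-301 replicate 2. HSPE1-MOB4 and PTPRCAP did not differ past the threshold. The dose of NTX-301 may not equal that of DAC, since the labels do not settle it.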

How the data were processed

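RNA of HL-60 cells was measured by stranded total RNA sequencing. The authors deposited 1 normalized log2 value per gene for each sample. The normalization is not given in the sources used here. The submitters' processing notes name FastQC, Trimmomatic 0.38, HISAT2, StringTie and the genome build hg19, without their roles. No counts or depths were used, so precision rests on the spread of 3 replicates. The files give no coordinates, and names and neighbours come from RefSeq (GRCh38.p14), in which 97.9% of the Gene IDs were found.

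A gene entered the test where its linear value reached 1 in 3 or more of the 9 samples (17046 genes, with 64 removed). A linear model per gene was fitted to the 9 HL-60 samples with limma 3.58.1 (R 4.3.3; two-sided tests, variance moderated with a trend on the mean), which left 6 residual degrees of freedom. The Benjamini-Hochberg adjustment covered every gene tested, and genes at an adjusted p under 0.05 are called. Errors are limma's SE. On simulated data of 17046 genes, with 200 of them changed by 0.25 or more on the log2 scale, the steps recovered 195, with 5 false calls. The median size of the called differences in the real data was 0.13, and recovery of changes that small was not tested.

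The comparison, the 40 gene lists, 57 symbol families and 24 gene classes were chosen with earlier results of these data known. Named genes were the 15 highest and 15 lowest log2 differences among called genes whose groups do not overlap and whose higher group has a mean linear value of at least 5, and for each list, family or class with 5 or more tested genes the 3 members with the lowest adjusted p and the 2 with the highest level. All members of 5 lists and the cell type markers could also be named. TTN, TEX15, H4C4, SNORD3D, TRDC, TRAC, TRGC1, TRGC2, FBL, NFKBIA, CSF2RB, DCK and the members listed by name beside a count of 5 or fewer were named after their values were seen. Some genes are not reported here. Transcript lengths and GC content come from GENCODE v29. The promoter classes were limited to protein-coding genes, since only 64.5% of all tested genes had a promoter sequence. Alternatives were other samples, scalings, filters, variance settings, a replicate block and leaving out each sample.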

Additional observations from a re-analysis of the deposited data

How the results depend on the processing

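The number of genes called was 3773 with only the 2 groups compared in the fit, 4002 after centring on sample medians, 3795 after quantile normalization, 4056 without the filter, 3912 without the variance trend and 4305 with robust variances. It was 3143 to 3723 when 1 sample was left out. A minimum log2 difference of 0.25 left 526 genes, 395 higher and 131 lower. After quantile normalization 43 pseudogenes and 21 transcribed pseudogenes were called higher, 18 snoRNAs higher and 11 lower, 10 H/ACA snoRNAs higher and 15 complex I genes lower. Of snoRNAs, 2 were called lower with only the 2 groups compared and 8 without the trend. The cause of these shifts was not tested.

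Leaving out 1 sample gave 43 to 69 pseudogenes called higher and 10 to 24 lower, 22 to 30 transcribed pseudogenes higher and 23 to 36 lower, 18 to 32 snoRNAs higher and 2 to 4 lower, 12 to 25 complex I genes lower and 9 to 18 H/ACA snoRNAs higher. With a limit of 0.75 on the promoter CpG ratio the CpG-poor class held 389 genes called higher and 352 lower, and with the lowest ratio over the starts 419 and 399. That last setting and the removal of length and GC trends were chosen after seeing the data. The counts of the eosinophil, azurophil, germline, NF-κB, myeloid factor, G2 and mitosis, lysosome, endoplasmic reticulum, kinesin, ribosome and spliceosome groups, of snoRNA hosts and of protein-coding and long noncoding RNA genes stayed within 1.5 times the main count under the alternatives run, for example 47 to 67 for cytosolic ribosomal proteins and 20 to 33 for G2 and mitosis genes. Of 33 counts of smaller or mixed groups, 13 moved by more than that under at least 1 alternative. Those printed here only are C/D snoRNAs called higher (8 after quantile normalization) and microRNA genes called lower (12 after it).

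Over all genes, the deviations of same-numbered samples correlated at −0.06 to 0.12, so the replicate numbers were not taken as pairs. A deviation shared by few genes would not show in these values. Every SNORD3 copy was lowest in replicate 3 of DMSO, DAC and NTX-301 alike. With the replicate block 4017 genes were called, 1948 higher and 2069 lower. Over 201 single-gene differences and their alternatives, 3219 of 3298 values kept their direction and side of the threshold, 71 lost a call, 8 gained one and 0 reversed. The calls that moved belonged to 21 of the 201. Read depth is unknown, so small differences of low genes cannot be set against counting error.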

Other observations

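Families of cell-surface and matrix genes, some of whose members are also on lists above, were called in one or both directions. Of 39 genes with a CD antigen symbol, 13 were called higher (33.3%, beside 11.5% of all genes at the same levels) and 3 lower (7.69%, beside 11.9%). CD82, a tetraspanin, rose by 0.61, from 9.38, 9.32 and 9.48 to 10.01, 9.97 and 10.02. Of 30 cadherin and protocadherin genes 7 were called higher and none lower, where 8.69% and 3.38% were called at the same levels. CDH24 rose by 0.74, from 10.51, 10.62 and 10.59 to 11.33, 11.32 and 11.28. Of 29 ADAM and matrix metalloproteinase genes 7 were called higher and none lower (11.1% and 8.03% at the same levels), and ADAMTS1 rose by 0.50. The groups did not overlap for CD82, CDH24 or ADAMTS1.

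Other surface families went both ways. Of 19 integrin genes 5 were called higher and 4 lower, where 11.8% and 12.5% were called at the same levels. Of 18 semaphorin and plexin genes 7 were called higher and 5 lower (11.7% and 9.36% at the same levels). The count lower was 3 without DMSO replicate 1 and 2 without DMSO replicate 3 or DAC replicate 1 or 2. Of 18 C-type lectin and Siglec genes 4 were called higher and 3 lower (12.2% and 10.0% at the same levels), and 1 was called lower without DMSO replicate 2 or DAC replicate 1 or 3.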
